A study of Mus musculus with 17 samples.

Results

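Pomc was followed through a Drop-seq atlas of the mouse hypothalamus, as 1 gene of the 23284 genes in the deposited table of all libraries. The gene was taken by its symbol, and its transcripts were counted in the 46 clusters the authors named, in the 24 cells of the cluster Glu13 and the 14413 other annotated cells, and in each mouse. In Drop-seq a bead in each droplet captures polyA RNA and adds 1 barcode per cell and 1 random tag per molecule (a UMI), so that a UMI count stands for captured molecules. All mice were B6D2F1 hybrids, the offspring of C57BL6 females and DBA2 males. The 3 food-deprived mice had been without food for 24 h, and the 5 normal mice had been fed. The 17 libraries fall into 5 batches; batch 1 holds food-deprived mouse 1 and normal mouse 3, and batch 2 holds food-deprived mouse 2 and normal mouse 4, while the other batches hold mice of 1 feeding state.

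Pomc encodes pro-opiomelanocortin, a precursor that prohormone convertases cut into peptides such as corticotropin, α-melanocyte-stimulating hormone and β-endorphin. In the hypothalamus its transcript is known from neurons of the arcuate nucleus, whose α-melanocyte-stimulating hormone acts on melanocortin receptors to lower food intake and is opposed by the agouti-related peptide (Agrp) of neighbouring neurons. The pituitary, which lies against the base of the hypothalamus, makes Pomc in corticotropes and melanotropes. Fasting is known to lower the Pomc transcript in the arcuate nucleus of mice.

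The annotated cells held 47340924 UMIs. The food-deprived mice gave 3674, 2970 and 1286 annotated cells, and the normal mice gave 129, 158, 2573, 1766 and 1881, with median UMIs per cell of 2068 to 2249 in food-deprived mice and 1444 to 2390 in normal mice. Normal mouse 1 gave 19 neurons, under the minimum of 20 cells set for comparisons between mice. In 9 libraries Gapdh, an otherwise abundant glycolysis gene, lay under 50 CPM (a gene's UMIs scaled to a common total, as counts per 1e6 UMIs), and in 8 it lay above. These are called the Gapdh-low and Gapdh-retaining libraries. Of 18167 distinct barcodes, 120 occurred in more than 1 library.

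Pomc was captured 7480 times, and 5919 of these UMIs (79.1%) lay in the 24 cells of Glu13. Every Glu13 cell carried Pomc, at a pooled level of 29266 CPM. The next cluster, Epith1, stood at 90.0 CPM, so Glu13 was 325 times higher. Since the authors' clusters were made from these cells with Pomc among the genes, this is a description of the cluster and not a test.

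Among single Glu13 cells Pomc ranged widely, with a lowest value of 1 UMI, a median of 85 and a highest of 1095. Relative to each cell's total, the lowest was 496 CPM, the median 20283 CPM and the highest 77197 CPM. The cell with 1 Pomc UMI, of 2016 UMIs in all, came from normal mouse 5, and the next lowest Glu13 cell held 18. The 17 cells of food-deprived mice had a lowest level of 3290 CPM, a median of 21811 CPM and a highest of 77197 CPM. The 7 cells of normal mice had 496 CPM, 10860 CPM and 76110 CPM at the same points. The ranges of the groups overlapped over nearly their whole length, as the plot of single cells shows.

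**Figure D1:**
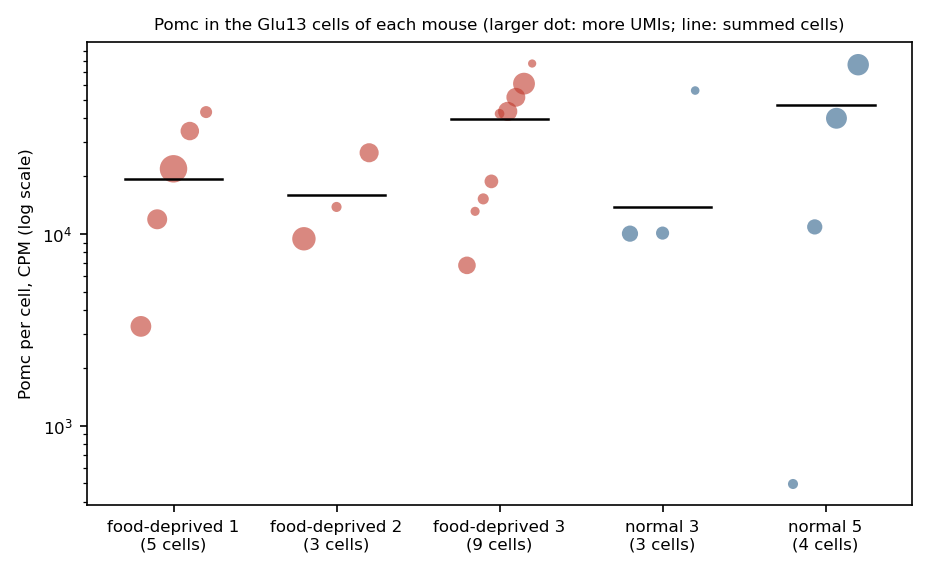
Pomc in each of the 24 Glu13 cells, in CPM on a log axis, by mouse, with food-deprived mice left of normal mice. Each point is a cell, and the 1 low cell of normal mouse 5 stands at 496 CPM while all others lie at or above 3290 CPM.

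The Glu13 cells came from 5 of the 8 mice. Food-deprived mice 1, 2 and 3 gave 5, 3 and 9 Glu13 cells, which were 0.996%, 0.732% and 2.65% of their neurons. Normal mice 3 and 5 gave 3 and 4 cells, or 0.840% and 0.897% of their neurons, and normal mice 1, 2 and 4 gave none. In normal mouse 4, 0 of 201 neurons were Glu13 cells, a count that allows a share of up to 1.82% (exact 95% binomial interval, which covers counting error only). Because Pomc leads the cluster, its size was not compared between the groups.

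With the Glu13 cells of a mouse summed, Pomc was 19224, 15904 and 39839 CPM in food-deprived mice 1 to 3. It was 13732 CPM in normal mouse 3 and 46829 CPM in normal mouse 5. The lowest and the highest value both belonged to normal mice. All Glu13 cells of food-deprived mouse 1 and normal mouse 3 came from Gapdh-low libraries, and all those of food-deprived mice 2 and 3 and normal mouse 5 came from Gapdh-retaining ones. The part of library type in the level was not tested, and with at least 5 cells in only 2 mice, both food-deprived, no test of the feeding state was made within the cluster. The share of a mouse's Pomc UMIs that lay in Glu13 was 79.6%, 49.4% and 91.2% in food-deprived mice 1 to 3, and 47.0% and 90.3% in normal mice 3 and 5.

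A pair of the Glu13 barcodes were 1 deleted base apart. Both came from library 4 of food-deprived mouse 1, and they are shown because they bear on the count of cells. The capital C marks the base (position 7 from the 5′ end) that is missing from the second barcode, and the capital N marks the undetermined base with which that barcode ends.
First barcode, 3504 UMIs, 151 of them Pomc: aaccacCaatcg
Second barcode, 10314 UMIs, 354 of them Pomc: aaccacaatcgN
Their Pomc levels were 43094 and 34322 CPM. In the whole annotation 203 barcode pairs of this form were found, covering 403 cells, and 188 of the pairs (92.6%) carried the same cluster name. Names drawn by cluster size would be the same in 11.8% of pairs. With the shallower barcode of the pair left out, Glu13 held 23 cells, and food-deprived mouse 1 held 4 of them, 0.798% of its neurons, with Pomc at 17842 CPM.

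Besides Pomc, Glu13 cells carried many of the known genes of POMC neurons, some of them at a lower level than other neurons. Cartpt, whose peptide is released beside melanocortins, was found in 24 of 24 Glu13 cells, at 13963 CPM against 902 CPM in all other neurons pooled, where 29.1% of cells carried it. Pcsk1, the convertase that makes corticotropin from the precursor, was found in 13 of 24 Glu13 cells at 173 CPM, against 79.4 CPM in other neurons. The genes that act after it, Pcsk2 (15 of 24 cells), Cpe (19) and Pam (20), and the granule proteins Pcsk1n, Scg5 and Chgb (24 each) were also present. Pcsk2, Cpe, Pam and Pcsk1n were lower than in other neurons, at 292, 564, 435 and 2438 CPM against 350, 753, 605 and 2924 CPM. All 11 genes of the processing and secretion list were detected in Glu13, 5 of them at a higher level than in other neurons and 1, Pcsk1, at a ratio of 2 or more. Over all 4246 genes found in at least 25% of Glu13 cells, 2270 were higher. This list summed to 10932 CPM in Glu13 and 11798 CPM in other neurons.

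Transcription factors of POMC neurons were also captured. Tbx3, which is needed for the identity of POMC neurons in mice, was found in 18 of 24 Glu13 cells at 297 CPM, against 26.4 CPM in other neurons. Isl1, an activator of Pomc in the embryo, was found in 19 cells at 252 CPM against 95.1 CPM. Prdm12, another regulator of Pomc, was found in 2 cells only, and Nhlh2 and Stat3 (the transcription factor downstream of leptin) in 8 and 14. The list as a whole had 10 of 13 members detected, 7 higher and 5 at a ratio of 2 or more to other neurons. Of the 4246 genes present in at least 25% of Glu13 cells, 2270 were higher and 158 were at a ratio of 2 or more.

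Of the 17 genes of hormone and nutrient sensing, 14 were detected in Glu13, 8 of them higher than in other neurons and 4 in at least 25% of Glu13 cells. Npy1r, a receptor for neuropeptide Y, was found in 16 of 24 Glu13 cells at 193 CPM against 23.7 CPM, and Npy2r in 7. The insulin receptor Insr was found in 7 cells and the leptin receptor Lepr in 2 cells. Mc3r and Mc4r, the melanocortin receptors of the brain, were each found in 1 cell. Absence of a UMI at this depth does not show absence of the transcript.

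Transmitter genes of both kinds were captured in Glu13. Slc17a6, the vesicular glutamate transporter that defines glutamatergic neurons, was found in 11 of 24 cells at 208 CPM, against 301 CPM in other neurons. Gad1 and Gad2, the enzymes that make GABA, were found in 10 and 13 cells, at 178 and 455 CPM against 321 and 603 CPM. Slc32a1, the transporter that loads GABA into vesicles, was found in 0 of 24 cells, while 43.4% of other neurons carried it. Galanin (Gal) was found in 13 cells, Agrp in 0 and Npy in 1.

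Markers of pituitary Pomc cells were few in Glu13. Of 12 genes of corticotropes, melanotropes and neighbouring pituitary cells, 8 had a UMI in any named cluster, and 1 of these was detected in Glu13, Tbx19, with 5 UMIs in a single cell. The list summed to 24.7 CPM in Glu13 and 26.8 CPM in other neurons. None of the 12 immediate early genes, which neurons induce on activity, was higher in Glu13 than in other neurons, although Fos was found in 18 cells.

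**Figure D2:**
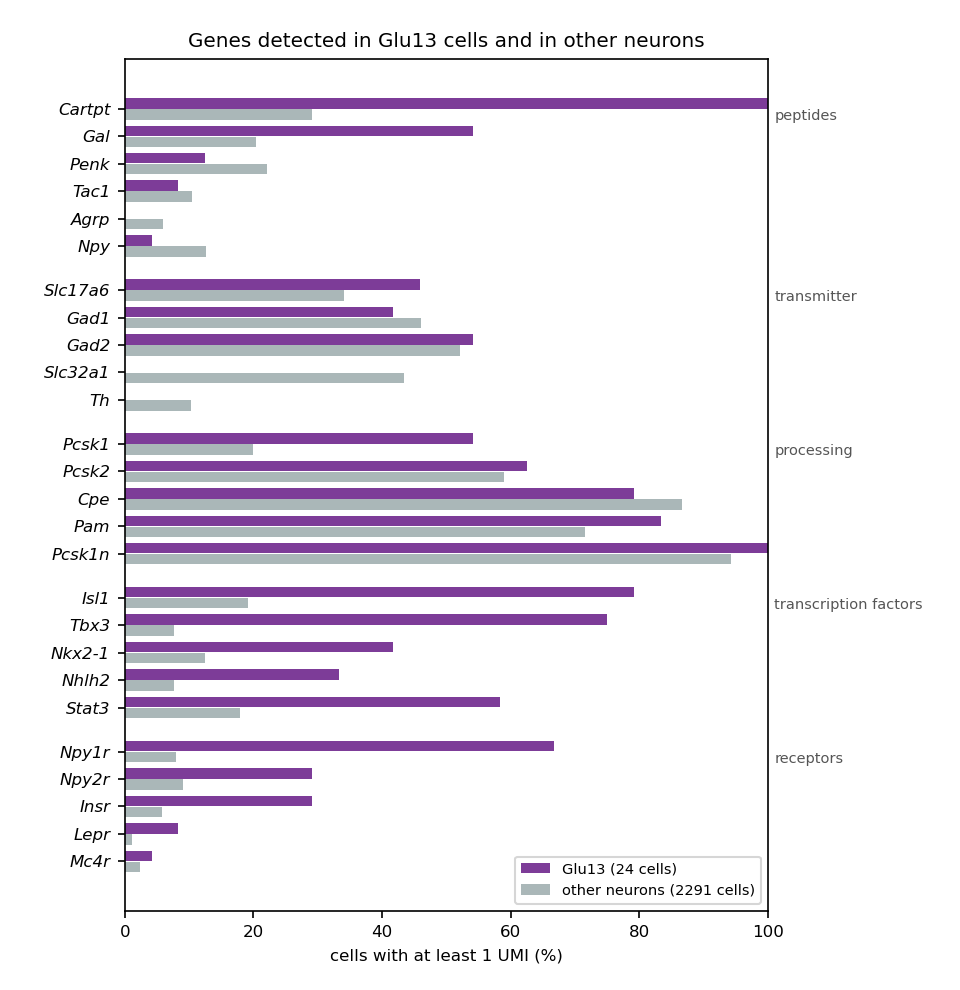
Percent of cells with at least 1 UMI of each gene, in the 24 Glu13 cells (purple bars, upper of each pair) and in the 2291 other neurons (grey bars), with genes grouped by role. Cartpt is found in 100% of Glu13 cells and 29.1% of other neurons, and Slc32a1 in 0% and 43.4%.

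The genes with the largest ratio of Glu13 to other neurons after Pomc, among those in at least 25% of Glu13 cells, were Pon2, Cartpt, Cd44, Plagl1, Fam159b, Tbx3, Bpifb1, Thsd4, Rnf128 and Npy1r. The genes whose level followed Pomc most closely over the 46 clusters had only moderate likeness. Among 10639 candidates with at least 50 CPM in a cluster, Ccdc147 led with a Pearson r of 0.549, and the tenth, Dnajc10, had 0.406 (log2 of CPM + 1, a description over clusters that share libraries). Below that level, Tbx19 had 0.550 and Prdm12 had 0.509. With Glu13 left out, Tbx19 had 0.007 and Prdm12 -0.059, so both values rested on Glu13, while Ccdc147 had 0.335 and Dnajc10 0.429. Cd44, with r of 0.411, and 0.148 without Glu13, stood in both lists.

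**Figure D3:**
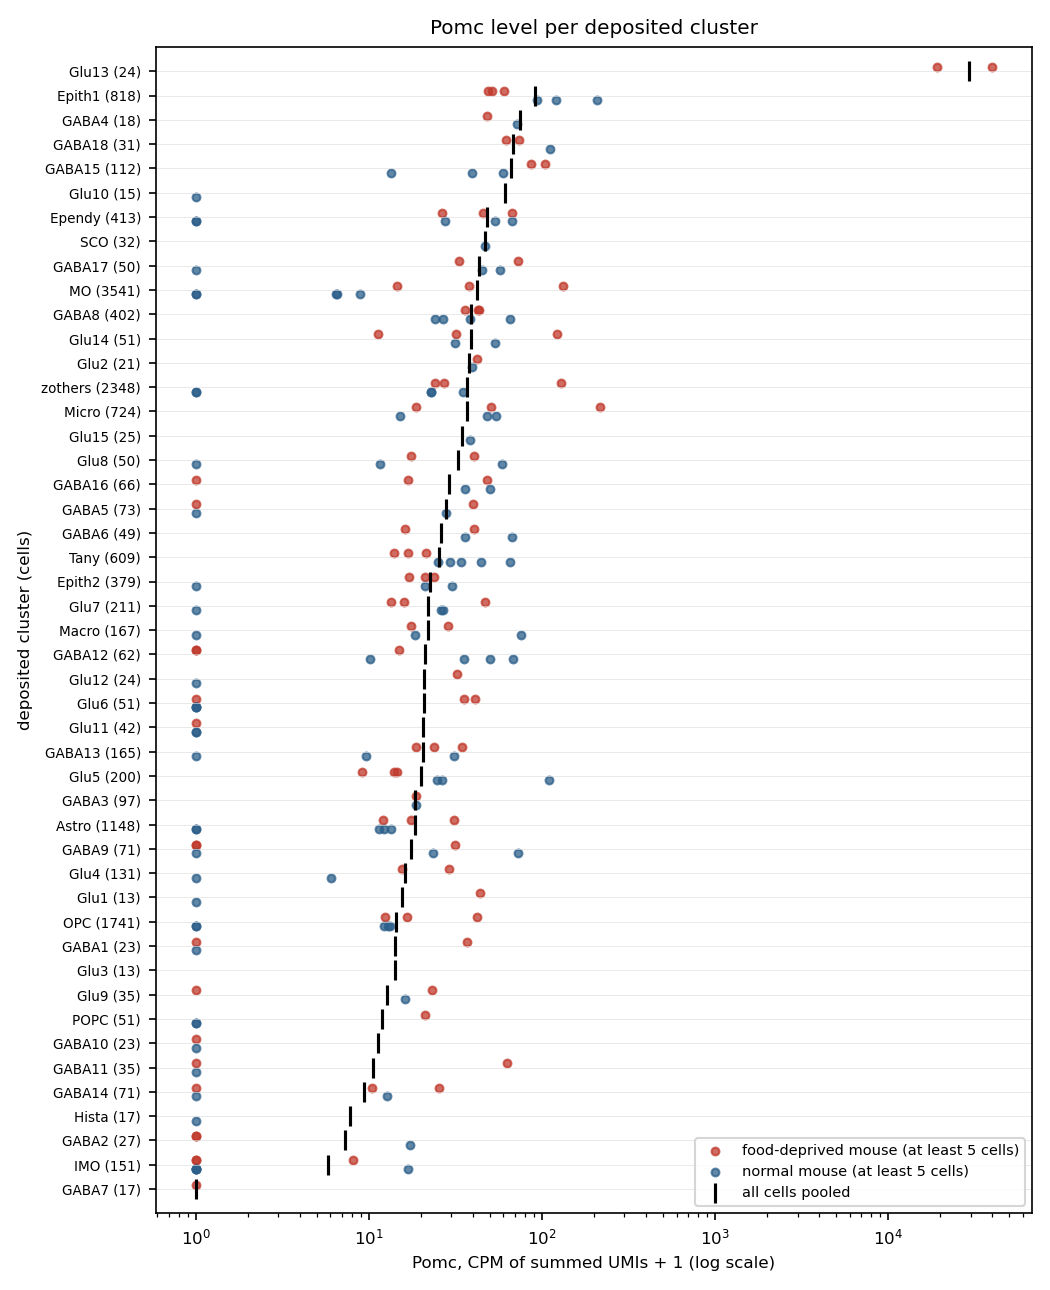
Pomc level of every cluster as CPM + 1 on a log axis, with the number of cells in brackets. Black bars pool all cells and points are single mice holding at least 5 cells of the cluster (red, food-deprived; blue, normal). Glu13 stands at 29266 CPM and every other cluster at or below 90.0 CPM when pooled.

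Outside Glu13, 901 of 14413 annotated cells (6.25%, exact 95% interval 5.86% to 6.66%) held at least 1 Pomc UMI. Of these, 738 (81.9%) held a single UMI, 117 held 2, 40 held 3 to 9 and 6 held 10 or more. In food-deprived mice 6.68%, 5.33% and 7.28% of cells outside Glu13 were positive, and in normal mice 1 to 5 the shares were 3.10%, 6.96%, 5.95%, 5.32% and 7.62%. The groups overlapped. Over the 17 libraries the share outside Glu13 went with the Pomc level of the whole library (Pearson r 0.480, Spearman rho 0.647, a description over libraries of 8 mice). The library level includes the Pomc UMIs outside Glu13, and in libraries without Glu13 cells consists of them. A part of this correlation is therefore built in.

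The order of the clusters below Glu13 was not resolved. Of the 40 clusters with at least 2 mice of 5 or more cells, ordered by their mean over mice, the step between neighbours exceeded the larger SD only between Glu13 (29531 ± 14577 CPM, SD, n = 2 mice) and Epith1 (96.4 ± 60.9 CPM, SD, n = 6 mice), and in the other 38 steps it did not. Of the 45 other named clusters, 40 had a pooled level under 50 CPM and 1, GABA7, had no Pomc UMI in 17 cells.

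Among neuronal clusters, GABA4 stood at 74.1 CPM, GABA18 at 67.3 CPM, GABA15 at 65.1 CPM and Glu10 at 60.3 CPM, all pooled over cells. GABA17 followed at 42.5 CPM, GABA8 at 38.2 CPM, Glu14 at 37.8 CPM, Glu2 at 36.7 CPM, Glu15 at 33.8 CPM and Glu8 at 31.6 CPM. These are clusters of 15 to 402 cells, in which 4 to 49 Pomc UMIs make the whole value. GABA16, GABA5, GABA6, Glu7 and GABA12 lay between 20.2 and 28.2 CPM, and Glu12, Glu6, Glu11, GABA13, Glu5, GABA3, GABA9, Glu4, Glu1, GABA1, Glu3, Glu9 and GABA10 between 10.3 and 19.9 CPM. GABA11, GABA14, Hista and GABA2 lay between 6.27 and 9.56 CPM. GABA15 carries Agrp and Npy, and 1 of its cells in food-deprived mouse 1 held 10 Pomc UMIs of 12725 beside 113 Agrp and 219 Npy UMIs. In GABA15, food-deprived mice 1 and 3 had 103 and 85.2 CPM, and normal mice 2, 3 and 5 had 58.4, 12.5 and 38.6 CPM (mice with at least 5 such cells, a pattern picked out after its values were seen and not tested). The cell with 10 UMIs gave 10 of the 24 Pomc UMIs of food-deprived mouse 1 there. Food-deprived mouse 2 and normal mouse 4, with 3 such cells each, had 30.7 and 30.4 CPM. How many genes share the order in GABA15 was not taken.

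Among non-neuronal clusters the order was Epith1 (90.0 CPM), Ependy (47.4), SCO (46.0), MO (41.5), Micro (35.8), Tany (24.6), Epith2 (21.7), Macro (20.9), Astro (17.4), OPC (13.4), POPC (10.9) and IMO (4.85). MO, Astro and OPC carry genes of myelinating oligodendrocytes, of astrocytes and of oligodendrocyte precursors, and Epith1 carries endothelial genes such as Cldn5 and Flt1. A Pomc UMI was held by 11.4% of Epith1 cells, 13.8% of Ependy cells and 2.26% of MO cells. Since deeper cells catch more UMIs of any kind, the shares were also taken with each cell thinned to 800 UMIs, which gave 5.29% in Epith1, 3.38% in Ependy, 0.896% in MO and 1.86% in Epith2. In GABA18 and GABA15 the thinned shares were 4.89% and 4.81%, both under that of Epith1.

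**Figure D4:**
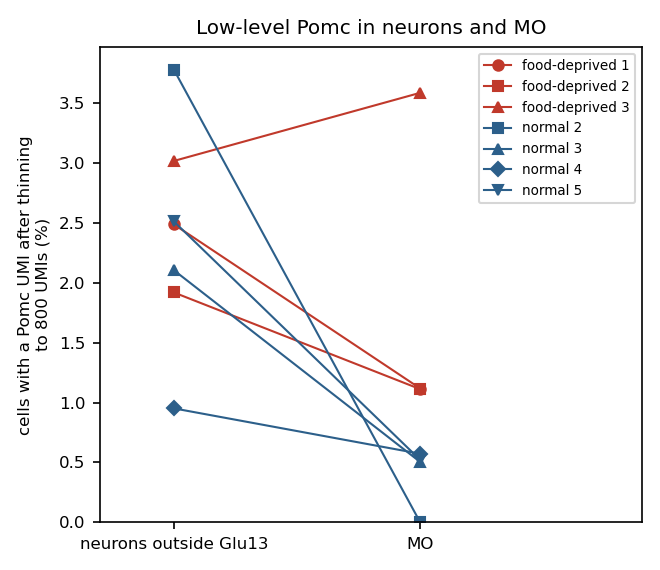
Share of cells with at least 1 Pomc UMI after thinning to 800 UMIs, in percent, in neurons outside Glu13 (left) and in MO (right). Each line joins the values of 1 mouse (red, food-deprived; blue, normal), and 6 of 7 lines fall towards MO. Neurons outside Glu13 averaged 2.39% over the 7 mice with enough cells and MO averaged 1.06%.

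Free transcripts in the droplet suspension also give UMIs in cells that do not make them, so neurons outside Glu13 were set beside MO, a cell type not known to make Pomc, in the same mice. As deposited, 12.3% of neurons outside Glu13 (median 3908 UMIs per cell) and 2.11% of MO cells (median 2187 UMIs) were positive on average over 7 mice, and the neurons were higher in 7 of 7 mice. Thinned to 800 UMIs, the shares were 2.39 ± 0.886% in neurons outside Glu13 and 1.06 ± 1.18% in MO (SD, n = 7 mice). The difference of 1.34 ± 1.37 percentage points was positive in 6 of 7 mice (exact sign-flip permutation test, two-sided, p = 0.0469, where the smallest possible is 0.0156). In food-deprived mouse 3, with 61 MO cells, MO was the higher at 3.58% against 3.01% in neurons. The call did not hold when 1 mouse was left out, except without food-deprived mouse 3 (exact p = 0.0313, the smallest possible with 6 mice). With 6 mice only a set of all positive differences can pass 0.05, so every set that kept food-deprived mouse 3 had to fail. In the 6 other cases the difference stayed positive at 0.93 to 1.495 points with an exact p of 0.0625 to 0.0938. Thinned to 1200 UMIs the difference was 2.06 points, positive in 7 of 7 mice (exact p = 0.0156). With 2 UMIs required at 800 UMIs the difference was -0.13 points (exact p = 0.75), and against all non-neuronal cells it was 0.54 points (exact p = 0.109).

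In Epith1, Pomc kept a larger share of its neuronal level than other peptide genes did. Pooled, its level in Epith1 was 18.1% of its level in all neurons, while for the other peptide genes compared this share lay between 0.587% (Npy) and 4.61% (Cartpt). In MO the share was 8.33% for Pomc and 0.497% to 2.90% for the others, but 253 and 36 of the 381 Pomc UMIs of MO came from a pair of cells described below. In OPC it was 2.70% for Pomc, and in Tany, Oxt with 9.59% exceeded Pomc with 4.94%. Pituitary genes were close to 0 in Epith1, with 4 UMIs in all, and 6 of the 8 genes of that list found in any named cluster were at 0, while endothelial genes summed to 8387 CPM. All 6 neuron markers were detected in Epith1, and the part of neuronal transcripts in its Pomc value was not tested.

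The barcodes that received no cluster name gave a further gauge of transcripts outside named cells. The 3829 such barcodes held 115 Pomc UMIs among 2005443, and 58 of them (1.51%) were positive. Their pooled level was 57.3 CPM, which is 11.5% of the all-neuron level. Of the 115 UMIs, 33 and 20 came from single barcodes of food-deprived mouse 1 and normal mouse 4, and without these the pooled level was 30.9 CPM. Per mouse they averaged 57.1 ± 42.2 CPM in food-deprived mice (SD, n = 3) and 50.2 ± 21.1 CPM in normal mice (SD, n = 5), and without these barcodes 31.7 ± 17.9 CPM in food-deprived mice and 36.5 ± 16.9 CPM in normal mice, with the order of the means turned round.

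The 6 cells outside Glu13 with 10 or more Pomc UMIs held 417 of the UMIs. The highest was a cell named MO from food-deprived mouse 2, with 253 Pomc UMIs of 19353, beside 45 Cartpt UMIs and also 56 Mbp and 14 Mog UMIs of myelin genes. No doublet caller was run, and whether this barcode holds more than 1 cell was not tested. A second MO cell of the same library held 36 of 2161. In food-deprived mouse 3, cells of zothers, the remainder without a cluster, held 91 of 4085 and 10 of 5229. An Epith1 cell of normal mouse 5 held 17 of 5009, with 4 Tbx3 UMIs, and the GABA15 cell is described above.

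The difference between food-deprived and normal mice was then taken over mice, for Pomc in each broad population. In bulk sums of this kind taken alone, fewer Pomc cells and less Pomc per cell cannot be told apart. The Glu13 cells counted in each mouse above enter every sum that includes Glu13. UMIs were summed per mouse and tested with edgeR's quasi-likelihood F test over all genes of each fit, with Benjamini-Hochberg adjustment, at 0.05, and the CPM values from here on are scaled by edgeR's TMM factors unless called plain. In all 14 fits 0 genes were called (0% of the genes tested), while 116 to 320 genes had an unadjusted p under 0.05. DESeq2 was run in 8 of the populations and its only call was Pomc in MO.

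In all neurons, Pomc was 438, 201 and 1848 CPM in food-deprived mice 1 to 3 and 54.1, 106, 18.8 and 973 CPM in normal mice 2 to 5. Each group had 1 mouse far above the rest of its group, and the groups overlapped. These sums include 5, 3 and 9 Glu13 cells in food-deprived mice 1 to 3 and 0, 3, 0 and 4 in normal mice 2 to 5. The fitted difference was 1.46 ± 1.05 on the log2 scale (SE) and was not called. It was 0.08 without food-deprived mouse 3 and 3.75 without normal mouse 5, and was not called in either case. With batch as a block it was 2.58 and passed the test (edgeR adjusted p = 0.0221). Because the other batches each hold 1 feeding state, the blocked difference draws on batches 1 and 2 only and not on all mice. There the food-deprived mouse had 5 Glu13 cells against 3 in batch 1, and 3 against 0 in batch 2. The part of these cell numbers in the blocked difference was not tested. In batches 1 and 2 alone, which hold 2 mice of each state, the difference was 2.31 and did not pass (edgeR adjusted p = 0.912). Myelin genes in the same neuron sums had a median log2 difference of 1.27, with 6 of 7 positive and none called. They summed to 1062, 714 and 246 plain CPM in food-deprived mice and 753, 602, 491 and 312 plain CPM in normal mice 2 to 5, and their part in the Pomc value was not tested.

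In neurons outside Glu13 the groups overlapped. Pomc was 32.4, 24.3 and 36.9 CPM in food-deprived mice and 54.1, 19.9, 18.8 and 28.7 CPM in normal mice 2 to 5. The means were 31.2 ± 6.35 CPM in food-deprived mice and 30.4 ± 16.4 CPM in normal mice (SD, n = 3 and 4), and the fitted log2 difference of 0.32 ± 0.29 was not called by edgeR. In GABA neurons the log2 difference was 0.28 ± 0.33. In Glu neurons, which include Glu13, it was 1.18 ± 1.19, with -0.24 without food-deprived mouse 3 and 3.99 without normal mouse 5.

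Over all annotated cells Pomc averaged 300 ± 330 CPM in food-deprived mice and 96.6 ± 155 CPM in normal mice (SD, n = 3 and 5), a log2 difference of 1.52 ± 0.98 that was not called. With batch as a block, where the difference again draws on batches 1 and 2 only, it was 1.89 and passed (edgeR adjusted p = 0.00552). These sums too include the Glu13 cells, 5 in the food-deprived mouse against 3 in batch 1 and 3 against 0 in batch 2. In batches 1 and 2 alone the difference was 1.82 and did not pass (edgeR adjusted p = 0.600). It was 0.026 without food-deprived mouse 3 and 3.37 without normal mouse 5, not called in either case. Over all cells outside Glu13 it averaged 45.5 ± 18.9 CPM in food-deprived mice and 25.2 ± 9.50 CPM in normal mice, a difference of 0.81 ± 0.33 that edgeR did not call. That difference was 0.07 without the 6 cells of 10 or more Pomc UMIs, of which 5 came from food-deprived mice. In non-neuronal cells Pomc averaged 40.9 ± 25.7 CPM in food-deprived mice and 23.8 ± 14.7 CPM in normal mice, with a difference of 0.64 ± 0.46. In IMO, OPC, Astro and Tany, Pomc lay under edgeR's filter on low counts and was not tested.

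In MO, Pomc was 13.5, 135 and 37.6 CPM in food-deprived mice 1 to 3 and 0, 0, 5.55, 8.23 and 6.05 CPM in normal mice 1 to 5. Every food-deprived mouse lay above every normal mouse, as did 1.95% of the genes tested in MO. The fitted difference was 3.45 ± 0.70 on the log2 scale with an edgeR p of 0.000144 and an adjusted p of 0.354, so it was not called. The number of positive MO cells was 33 of 1109, 24 of 858 and 3 of 61 in food-deprived mice, and 0 of 37, 0 of 36, 8 of 655, 9 of 453 and 3 of 332 in normal mice. Without the pair of MO cells of 10 or more UMIs, food-deprived mouse 2 had 10.5 plain CPM and Pomc fell under the filter on low counts. The difference was 4.09 without food-deprived mouse 1 and then passed (edgeR adjusted p = 0.000259). DESeq2 called Pomc in MO (adjusted p = 0.0202), as did the fit with batch as a block at 3.06 (edgeR adjusted p = 0.00276). That block compares the feeding states within batches 1 and 2 only. In batches 1 and 2 alone the difference of 3.43 was not called (edgeR adjusted p = 0.430). Over the 12 alternatives that gave a value, the difference ranged from 1.34 to 4.09 and was called in 4.

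The neuron marker list in MO rested mainly on 1 gene. All 6 genes were detected in MO, with summed levels of 389, 488 and 546 plain CPM in food-deprived mice and 93.5, 315, 300, 232 and 285 plain CPM in normal mice, so that the groups did not overlap. Tubb3, a tubulin of neurons, gave 1846 of the 3390 UMIs of this list in MO and stood at 38.5% of its level in all neurons, while the other genes stood at 3.85% to 5.99% of theirs. Without Tubb3 the list summed to 207, 155 and 339 plain CPM in food-deprived mice and 26.7, 139, 167, 86.8 and 194 plain CPM in normal mice, and the groups overlapped. The summed level of 12 other secreted peptide genes in MO overlapped too, at 226, 229 and 103 plain CPM in food-deprived mice and 40.1, 50.4, 296, 136 and 322 plain CPM in normal mice. The part of neuronal transcripts in the Pomc value of MO was not tested.

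In the cells named Epith the order of the groups was the opposite. Pomc was 37.6, 45.3 and 34.4 CPM in food-deprived mice and 85.0, 64.8 and 157 CPM in normal mice 3 to 5. Every food-deprived mouse lay below every normal mouse tested, as did 4.91% of the genes tested in Epith. The fitted difference was -1.21 ± 0.33 on the log2 scale with an edgeR p of 0.00306 and an adjusted p of 1.00, so it was not called either, and this population was followed up after its values were seen. A single Epith1 cell held 17 of the 33 Pomc UMIs of normal mouse 5, which without it had 71.1 plain CPM, and the fitted difference was then -0.90. In Epith1 alone the thinned share of positive cells was 3.97%, 2.61% and 3.42% in food-deprived mice and 6.32%, 7.30% and 8.97% in normal mice 3 to 5. The share of all genes with this order in Epith1 was not taken. In Epith2, the other cluster of Epith, the groups overlapped. Its thinned shares were 1.60%, 2.08% and 1.75% in food-deprived mice and 3.02%, 1.03% and 0% in normal mice 3 to 5. The peptide genes other than Pomc summed to 302, 248 and 101 plain CPM in food-deprived Epith cells and 288, 136 and 308 CPM in normal ones, and these overlapped. In Tany, Pomc lay under the filter, at 15.8, 13.03 and 20.6 plain CPM in food-deprived mice and 24.2, 64.4, 28.4, 33.3 and 43.7 plain CPM in normal mice 1 to 5. Every food-deprived mouse lay below every normal mouse there too, as did 4.62% of the genes tested in Tany over mice with at least 20 such cells. In Ependy it was 49.5 ± 21.8 CPM in food-deprived mice and 54.3 ± 22.6 CPM in normal mice, with a log2 difference of -0.04 ± 0.44.

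**Figure D5:**
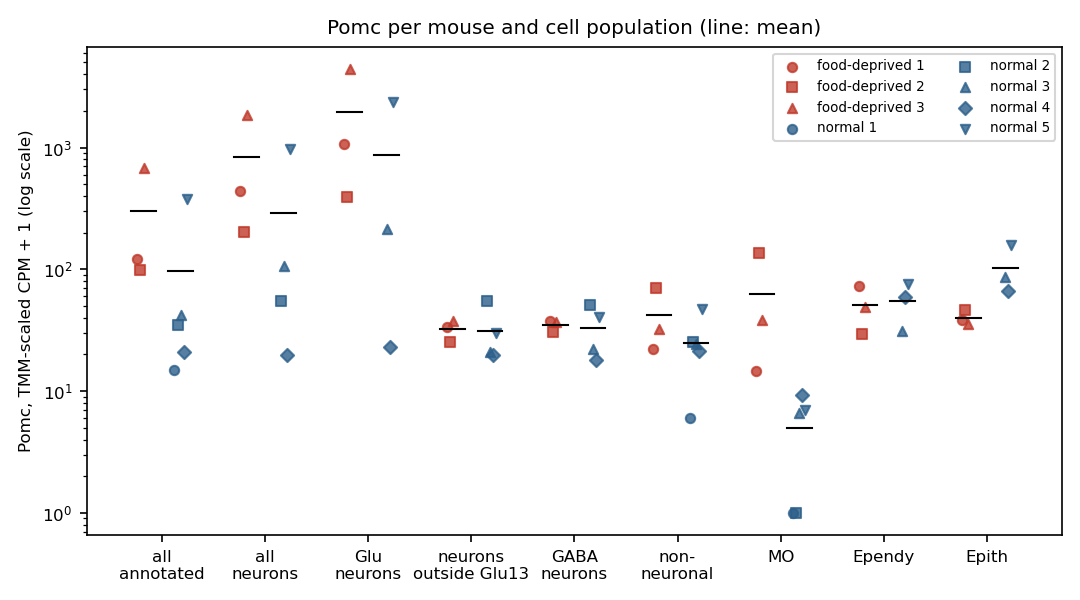
Pomc as TMM-scaled CPM + 1 by mouse in the populations tested, on a log axis, with a line at each group's mean and food-deprived mice left of normal mice. In MO the food-deprived mice lie at 13.5 to 135 CPM above all normal mice, and in Epith at 34.4 to 45.3 CPM below the 3 normal mice tested.

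The share of positive cells by feeding state was compared in 4 populations. In neurons outside Glu13 it was 13.5%, 13.3% and 10% (33 of 330) in food-deprived mice 1 to 3 and 19.5%, 9.32%, 10.4% and 10.4% in normal mice 2 to 5. The means of 12.2 ± 1.95% in food-deprived mice and 12.4 ± 4.76% in normal mice (SD) differed by -0.17 percentage points (exact permutation test over mice, two-sided, p = 1, where the smallest possible is 0.0571). In all neurons the shares were 13.5 ± 1.02% in food-deprived mice and 12.8 ± 4.49% in normal mice (exact p = 0.857). With 2 or more UMIs required, the all-neuron shares were 3.98%, 2.68% and 4.42% in food-deprived mice and 0%, 2.52%, 1.99% and 1.35% in normal mice 2 to 5, and every food-deprived mouse lay above every normal mouse tested. That difference of 2.23 points had an exact p of 0.0571, the smallest possible, and includes the Glu13 cells. The share of all genes with this order was not taken. In neurons outside Glu13 the shares at 2 or more UMIs overlapped. They were 3.02%, 1.97% and 1.82% in food-deprived mice and 0%, 1.69%, 1.99% and 0.679% in normal mice 2 to 5 (difference 1.18 points, exact p = 0.171). With at least 1 UMI, the shares in non-neuronal cells were 4.33 ± 1.02% in food-deprived mice and 3.57 ± 1.69% in normal mice. In all annotated cells they were 6.72 ± 1.26% in food-deprived mice and 5.85 ± 1.80% in normal mice (exact p = 0.536 for each, where the smallest possible is 0.0357). All 4 adjusted p-values of the shares with at least 1 UMI were 1. Within batches 1 and 2, the neurons outside Glu13 of the food-deprived mouse were the higher, by 4.16 and 2.82 points, against -0.17 points over all mice.

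In all neurons edgeR called no member of any list of POMC neuron genes. The 10 processing genes tested had a median log2 difference of 0.11 with 7 positive, the 14 hormone and nutrient sensing genes -0.13 with 4 positive, and the 10 transcription factors -0.20 with 4 positive, beside a median of 0.00 over all genes tested. The 6 receptors and accessory genes tested had -0.07 with 3 positive, and the 11 co-transmitter and transmitter genes 0.04 with 7 positive. The 11 immediate early genes tested had a median of -0.35, and 0 of them were positive. Among sensing genes, Socs3, an inhibitor of leptin signalling, was 14.1 ± 1.38 CPM in food-deprived mice and 27.3 ± 5.70 CPM in normal mice (log2 difference -0.88, edgeR adjusted p = 1.00, not called). Cartpt was 1179 ± 462 CPM in food-deprived mice and 1161 ± 551 CPM in normal mice. The smallest p-values over all genes in neurons were those of Cbln4 (log2 difference -0.92), Pvalb (1.88) and Mdn1 (-0.76), and none passed edgeR's adjustment.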

How the data were processed

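Pomc was taken from the deposited table of all 17 libraries, in which the authors left each gene's UMI counts in each cell unnormalized. The genome build was mm9 per the submitters' processing notes, and the sources used here do not name an aligner or a counter. Cluster names are the authors' deposited ones. Each cell was given its mouse from batch and feeding state, and 161 cells whose barcode occurs in more than 1 library of a mouse were kept with the mouse only. The mouse is the replicate, and the labels name no other pairing. The gene, the lists and the tests were chosen with earlier results of these data known. Named genes were Pomc, the list members, the 10 genes most like Pomc over clusters, the 10 with the largest Glu13 ratio (among genes in at least 25% of Glu13 cells), and the 3 with the smallest p in all neurons. Cells of 10 or more Pomc UMIs were singled out after their values were seen.

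UMIs were summed per mouse (at least 20 cells, and at least 5 for cluster means) and fitted with edgeR 4.0.16 in R 4.3.3 (TMM, filterByExpr, Benjamini-Hochberg at 0.05). DESeq2 1.42.0 was an alternative. Shares were compared by exact permutation over mice with scipy 1.17.1 in Python 3.11.15. Thinning used the expected share at 800 UMIs, with 1200 as the alternative. No doublet caller was run. The scripts were tested on simulated data. Intervals are exact binomial and cover counting error only. A Pomc pseudogene, Pomc-ps1, is in the RefSeq table of another build and is no row of the deposited table, so reads shared with it cannot be told apart.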

Additional observations from a re-analysis of the deposited data

Results flagged for a closer look

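Pomc in all annotated cells of normal mouse 5, at 373.5 CPM, stood far from the other normal mice, and so did all neurons of that mouse at 973.1 CPM. Of the share of neurons with a Pomc UMI, normal mouse 2 stood apart at 19.5%, both with and without Glu13, on 41 neurons. These are 4 of 11 such tests of 1 sample against its group, and chance alone marks about 1 group in 20. The populations share most of their neurons and the same mice, so the 4 are not independent and cannot be counted against that rate.

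MO and Epith had opposite orders of the groups. Every food-deprived mouse lay above every normal mouse in MO, an order that 1.95% of the genes tested there shared. In Epith every food-deprived mouse lay below each of the 3 normal mice tested, an order that 4.91% of the genes tested there shared. Normal mice 1 and 2 had 5 and 6 Epith cells and were not tested. In food-deprived mouse 2, a pair of MO cells held 253 and 36 of the 314 Pomc UMIs of MO. The difference between the responses, MO minus Epith, was 3.77 on the log2(CPM + 1) scale over 3 food-deprived and 3 normal mice (exact permutation test, two-sided, p = 0.1, which is the smallest possible). The pattern was picked out after its values were seen. Those orders alone set this p at its smallest possible value, so the test adds nothing to them.

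Barcodes outside the annotated cells held Pomc at 57.1 CPM on average in food-deprived mice and 50.2 CPM in normal mice. A barcode of food-deprived mouse 1 held 33 Pomc UMIs of 481, and a barcode of normal mouse 4 held 20 of 652. Without these the means were 31.7 CPM in food-deprived mice and 36.5 CPM in normal mice.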

How the results depend on the processing

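Of the main values recomputed under the alternatives, 266 kept their direction and side of the threshold. Another 20 changed sign, 7 newly passed a threshold and 7 no longer passed it. In 15 cases the number of genes called rose above the 0 of the main fit. Of the Pomc levels of clusters other than Glu13, 69 stayed within the SD over mice and 9 did not. The cause of these changes was not tested. No paired analysis was possible because replicate numbers only name mice and pair none of them. Batch, which holds 1 mouse of each state in batches 1 and 2, was the block instead. The other batches hold 1 feeding state each, so the blocked difference draws on batches 1 and 2 only. With batch as a block, Pomc passed in all annotated cells (1.89, adjusted p = 0.00552), all neurons (2.58) and MO (3.06), all by edgeR, and the genes called were 29 in all annotated cells, 3 in all neurons, 16 in neurons outside Glu13, 28 in all cells outside Glu13, 27 in non-neuronal cells and 17 in MO. In Gapdh-low libraries, edgeR called 3 genes in all neurons, 3 in Glu neurons, 3 in neurons outside Glu13 and 5 in MO, and Pomc in non-neuronal cells was -0.045. Without the low-count filter, Pomc passed in Glu neurons (1.17) and MO (3.47), with 37, 22 and 5 genes called in Glu neurons, MO and Epith. DESeq2 called 1 gene in MO, Pomc (3.45). Leaving out 1 mouse in turn, Pomc ranged from -0.24 to 3.99 in Glu neurons, from -0.032 to 1.02 in non-neuronal cells and from 3.41 to 4.09 in MO, where it was called without food-deprived mouse 1 (0 to 1 genes called). Over all 12 MO alternatives with a value, Pomc ranged from 1.34 to 4.09. Without cells of 10 or more Pomc UMIs, an alternative added after seeing the data, non-neuronal Pomc was -0.0445. In MO, Pomc fell under the filter without food-deprived mouse 2, normal mouse 3 or normal mouse 4, in Gapdh-retaining libraries and without those cells, so no value was had. The Epith alternatives were also added after seeing the data and kept -1.47 to -0.85.

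Shares are differences in percentage points, food-deprived minus normal. That of all neurons was 2.23 at 2 or more UMIs, -0.19 in Gapdh-retaining libraries and -0.18 to 2.96 with 1 mouse left out. That of neurons outside Glu13 was 1.18 at 2 or more UMIs, 0.24 at 5 or more, 0.14 after thinning, 3.78 in Gapdh-low libraries, 4.16 in batch 1, 2.82 in batch 2 and -1.21 to 2.19 with 1 mouse left out. That of non-neuronal cells was -0.18 at 2 or more UMIs, -0.33 in Gapdh-low libraries, -0.18 in batch 1 and -0.96 in batch 2. Neurons outside Glu13 minus MO was -0.13 at 2 or more UMIs, 0.54 against all non-neuronal cells and 0.93 to 1.65 with 1 mouse left out. With 24 Glu13 cells in 5 mice, Pomc per cell and the number of cells limit every value that includes Glu13.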
